A study of Mus musculus with 2 samples.

Results

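Folr2-positive macrophages outside the cell cycle made up 843 of the 12514 cell barcodes in single-cell RNA sequencing of CD45+ leukocytes from mouse tumours. A barcode was a member when mitochondrial transcripts were at most 10% of its unique molecular identifiers (UMIs, each counting 1 captured mRNA molecule), C1qa, C1qb and C1qc together had at least 30 UMIs and Folr2 had at least 2. It also had fewer than 2 UMIs of Mki67 plus Top2a, which marks cycling cells, at least 1 UMI of the leukocyte gene Ptprc, at most 1 UMI of Cd3d, Cd3e and Cd3g together, and 0 of the B cell gene Cd79a. The members were thus chosen on measured levels of these genes, whose values below are description with no test. The 2 groups of the study were tumours of miR-21 knockout (KO) MTC-Q1 cells and tumours of wild-type (WT) MTC-Q1 cells, a mouse oral cancer line, both grown under the skin of C57BL/6 mice. The knockout is in the injected cancer cells; the labels name no altered gene in the mice that supplied the macrophages. Every mouse received cisplatin, a drug that crosslinks DNA, at 5 mg/kg after 2 weeks of growth, and tumours were collected 72 h later, so there is no group without the drug. Dead cells were removed and CD45+ cells were taken with magnetic beads before droplet capture. Each group gave 1 library, and the labels state neither the number of mice per library nor whether the knockout line is 1 clone. Each barcode of the matrix belongs to library 1 or library 2, and nothing in the labels or headers says which library is KO and which is WT. The libraries are therefore set side by side, and no direction between KO and WT is given.

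Folr2 encodes folate receptor beta, a membrane protein that binds folate and is carried by macrophages that live in tissues, often beside blood vessels. C1q, the first component of the classical complement pathway, is made mainly by macrophages. Tissue macrophages of this kind take up dead cells and debris through scavenger receptors such as Stab1 and Mrc1 and through Gas6, the bridge between dying cells and the receptors Mertk and Axl, and they break down the cargo in lysosomes. Inflammatory monocytes, marked by Ly6c2 and Ccr2, enter tumours from the blood and can turn into macrophages, and MHC class II molecules present peptides to CD4 T cells.

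The promoter windows of Folr2, which defines the class, are printed here with those of Fcrls, Cbr2 and Ccl8. Fcrls, Cbr2 and Ccl8 were called higher in Folr2-positive than in Folr2-negative macrophages. Maf, a transcription factor gene that was also called higher, encodes a protein that binds DNA through the half-site TGCTGA. Whether Maf acts on any of these genes was not tested. Each window holds 300 bases of RefSeq's GRCm38.p6 sequence, read 5′ to 3′ on the strand of the gene, and capitals mark TGCTGA or its reverse complement TCAGCA, the same letters on the other strand. Folr2 has a pair of annotated starts on the minus strand of chromosome 7, at chr7:101857141-101857440 and chr7:101845282-101845581. Fcrls, an Fc receptor-like scavenger receptor, lies on the minus strand at chr3:87263475-87263774, and Cbr2, a carbonyl reductase, on the minus strand at chr11:120731972-120732271. Ccl8, a monocyte-attracting chemokine, lies on the plus strand at chr11:82114935-82115234.
Folr2 start 1: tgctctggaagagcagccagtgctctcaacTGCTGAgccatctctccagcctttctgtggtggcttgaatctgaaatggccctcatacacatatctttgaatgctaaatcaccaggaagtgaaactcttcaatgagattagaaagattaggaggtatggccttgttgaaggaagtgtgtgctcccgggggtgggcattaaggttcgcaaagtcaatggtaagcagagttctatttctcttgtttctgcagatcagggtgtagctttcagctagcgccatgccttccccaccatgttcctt
Folr2 start 2: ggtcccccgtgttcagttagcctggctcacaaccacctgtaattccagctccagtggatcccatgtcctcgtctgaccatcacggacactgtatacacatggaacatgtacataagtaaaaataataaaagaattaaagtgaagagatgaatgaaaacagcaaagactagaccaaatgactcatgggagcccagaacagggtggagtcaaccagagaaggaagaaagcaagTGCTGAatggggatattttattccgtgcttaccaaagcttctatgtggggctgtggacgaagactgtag
Fcrls: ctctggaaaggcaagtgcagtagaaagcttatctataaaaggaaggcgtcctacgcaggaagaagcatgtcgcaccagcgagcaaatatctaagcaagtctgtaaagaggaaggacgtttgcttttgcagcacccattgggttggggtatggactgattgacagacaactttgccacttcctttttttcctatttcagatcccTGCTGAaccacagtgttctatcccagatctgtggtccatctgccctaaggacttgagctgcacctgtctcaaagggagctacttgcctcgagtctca
Cbr2: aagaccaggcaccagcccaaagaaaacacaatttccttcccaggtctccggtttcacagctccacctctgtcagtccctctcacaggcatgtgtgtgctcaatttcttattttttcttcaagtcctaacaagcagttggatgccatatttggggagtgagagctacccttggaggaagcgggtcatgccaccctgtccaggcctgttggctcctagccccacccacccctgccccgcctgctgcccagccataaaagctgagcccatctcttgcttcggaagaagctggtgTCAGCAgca
Ccl8: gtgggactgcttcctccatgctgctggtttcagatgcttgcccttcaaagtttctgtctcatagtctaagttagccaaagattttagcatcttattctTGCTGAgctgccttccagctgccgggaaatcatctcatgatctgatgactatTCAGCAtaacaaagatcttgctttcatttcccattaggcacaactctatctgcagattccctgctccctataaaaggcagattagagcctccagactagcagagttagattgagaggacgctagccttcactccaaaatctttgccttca
The Folr2, Fcrls and Cbr2 windows each held 1 match and the Ccl8 window held 2. The matching window of Stab1, at chr14:31168592-31168891 on the minus strand, held 1. Those of Pf4, at chr5:90772185-90772484 on the plus strand, and Gas6, at chr8:13494486-13494785 on the minus strand, held 0. Stab1, Pf4 and Gas6 were also called higher in the Folr2-positive cells, and their windows are not printed. Among all 32851 promoter windows listed by RefSeq, 19.5% held at least 1 match, so the letters are common, and a match describes the sequence without showing that the factor binds there.

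Library 1 held 67 of these macrophages with 1177420 UMIs in all, and library 2 held 776 with 14991317 UMIs. The median member had 16619 UMIs and 3827 detected genes in library 1 and 17888.5 UMIs and 3874 genes in library 2. All barcodes of library 1 had a median of 7169 UMIs and those of library 2 a median of 15247.5, so the libraries differ in depth overall much more than the members do. Levels are given as UMIs of the gene per 1000000 UMIs of the summed cells (CPM), library 1 first, and intervals are exact 95% intervals that take in counting error alone. Barcode sequences that occur in both libraries numbered 8, and 1 member carried one. The libraries also stand apart in sex-linked transcripts: Xist, made from the inactive X chromosome, had a UMI in 65 of 67 members of library 1 and in 0 of 776 of library 2, and over all barcodes the Y-linked Ddx3y had 162 UMIs in library 1 and 0 in library 2. The labels do not give the sex of the mice, and its part in differences between the libraries was not tested.

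The cells carried the markers of their name. Folr2 averaged 357 CPM in the members of library 1 and 418 CPM in those of library 2, with a median of 5 and 6 UMIs per cell and a maximum of 28 and 37. C1qa had 8502 and 8967 CPM in the members, against 6024 and 6208 CPM in C1q macrophages with no Folr2 UMI and 14.1 and 62.2 CPM in inflammatory monocytes. Both genes were used to choose the members, and the monocytes were limited to at most 5 C1q UMIs. These values therefore follow from the limits. Of the markers that the gate did not use, Fcrls had a UMI in 83.6% of members of library 1 and 95.6% of library 2, Pf4, the chemokine platelet factor 4, in 85.1% and 95.1%, and Stab1, the scavenger receptor stabilin-1, in 80.6% and 90.3%. In T cells, which should lack them, Fcrls had a UMI in 1.30% of cells of library 1 and 22.7% of library 2, Pf4 in 1.30% and 31.5%, and Stab1 in 2.18% and 20.1%, at the T cell depths given below. Among T cells with at most 5 C1q UMIs, Fcrls had a UMI in 0.614% and 9.31%. Pf4 had one in 0.737% and 18.6% of these cells, and Stab1 in 1.23% and 7.42%. The macrophage genes Adgre1 (483 and 435 CPM), Csf1r (632 and 712 CPM), Mertk (110 and 79.5 CPM), Cd68 (690 and 782 CPM) and Fcgr1 (685 and 748 CPM) were all present.

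Markers of other cells were present at low levels in the members, and the NK cell and fibroblast lists were higher in library 2. Over whole lists, T cell genes summed to 56.1 and 45.4 CPM, B cell genes to 51.8 and 28.7 CPM, neutrophil genes to 72.2 and 55.3 CPM, dendritic cell genes to 22.9 and 30.2 CPM, endothelial genes to 48.4 and 13.5 CPM, epithelial genes to 12.7 and 2.87 CPM and mast cell genes to 0.849 and 1.47 CPM. Platelet and erythroid genes, of interest since platelets also make Pf4, summed to 0 and 4.94 CPM over 8 genes. All 8 were at 0 in library 1, and 6 were at 0 in library 2. Of single defining genes, Trac of T cells had 1.70 and 1.87 CPM, Ms4a1 of B cells 0.849 and 0.667 CPM, Flt3 of dendritic cells 0 and 0.867 CPM, and Cpa3 of mast cells and Ly6g of neutrophils were at 0 in both libraries. The NK cell list, with 11 genes, summed to 63.7 CPM in library 1 (4 genes at 0) and 397 CPM in library 2 (0 genes at 0), and the fibroblast list summed to 95.1 CPM and 494 CPM. Both were also present in Folr2-negative C1q macrophages, at 61.7 and 628 CPM for the NK list and 328 and 649 CPM for the fibroblast list. As a measure of background in cells that should lack the gene, Folr2 had a UMI in 0.485% of 3302 T cells of library 1 (median 6551 UMIs) and in 14.3% of 2219 T cells of library 2 (median 15374 UMIs), and in 0.307% and 3.54% of T cells with at most 5 C1q UMIs. No doublet caller was run; the limits on Cd3 and Cd79a genes remove pairs with T and B cells.

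Members made up 1.28% (0.992 to 1.62%; 67 of 5241) of the barcodes of library 1 that passed the mitochondrial limit and 10.9% (10.2 to 11.7%; 776 of 7098) of those of library 2. Among all C1q macrophages, cycling ones included, the share with at least 2 Folr2 UMIs was 25.1% (20.4 to 30.2%; 81 of 323) in library 1 and 54.2% (51.9 to 56.5%; 1022 of 1886) in library 2. With every cell thinned to 4000 UMIs and the same limits applied, those shares were 9.47% and 27.6%. The intervals of the libraries did not overlap as gated, but each is 1 library of cells that had passed dissociation, dead-cell removal and bead selection. Cycling cells were 17.3% (9.78 to 27.3%) of Folr2-positive C1q macrophages in library 1 and 24.1% (21.5 to 26.8%) in library 2, next to 21.5% and 24.6% of those with no Folr2 UMI. With cells thinned to 4000 UMIs and the same limits applied, the cycling share was 4.35% (0.110 to 21.9%) of Folr2-positive cells against 12.7% (8.31 to 18.3%) of those with no Folr2 UMI in library 1, and 7.61% (5.12 to 10.8%) against 14.2% (11.7 to 17.0%) in library 2. The intervals overlapped as gated in both libraries and after thinning in library 1, and did not overlap after thinning in library 2. Thinning also removes Folr2 UMIs: in library 2 the class with no Folr2 UMI held 638 cells as gated and 710 after thinning. Cycling Folr2-positive cells of library 2 had a median of 23689 UMIs before thinning, against 17888.5 in the members. The part of thinning in this difference was not tested.

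The edge of the gate was well filled. Exactly 2 Folr2 UMIs were seen in 15 members of library 1 and 105 of library 2, while 23 and 161 cells with exactly 1 Folr2 UMI lay just outside. C1q sums near the limit were rare: 1 member in each library had 30 to 39 C1q UMIs, and the median member had 287 in library 1 and 389 in library 2. A single UMI of Mki67 or Top2a was found in 15 and 181 members, and 4 and 54 otherwise matching cells had exactly 2.

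The first comparison asked what else differed between Folr2-positive macrophages and the macrophages most like them, the 168 cells of library 1 and 481 of library 2 that passed the same limits with 0 Folr2 UMIs (median 14245.5 and 12891 UMIs per cell). UMIs were summed per class and library and tested with edgeR's quasi-likelihood test with library as a block, and a gene was called at a Benjamini-Hochberg adjusted p under 0.05, at least 2-fold, and the same direction in both libraries, read from counts with 0.5 added. The log2 fold changes of edgeR rest on totals rescaled by its TMM method and CPM on raw totals, so the 2 can differ. Of 10707 genes tested, 119 were higher (1.11%) and 120 lower (1.12%) in the Folr2-positive cells. Genes listed for resident-type macrophages were frequent on the higher side, and MHC class II and monocyte genes on the lower side. Each class has 1 sum per library, so these p-values rest on 2 libraries that also differ in tumour genotype. Without the library block only 1 gene, Cbr2, was higher and only 1, Napsa, which encodes an aspartic protease, was lower, and DESeq2 called 78 higher and 86 lower, of which 72 and 85 were among the calls above. The Folr2-negative cells were shallower; among cells of 10000 to 40000 UMIs 117 genes were higher and 114 lower, and 101 and 100 of them were among the calls above. Of the genes described below, DESeq2 left Ccl8, Pf4, Fcna, F13a1, Lyve1, Cd163, Vsig4, S1pr1, Ctsf, Cd74, H2-Ab1, Mgl2, Mmp12 and Cilp uncalled, and Selenop was uncalled in the cells of 10000 to 40000 UMIs.

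**Figure D1:**
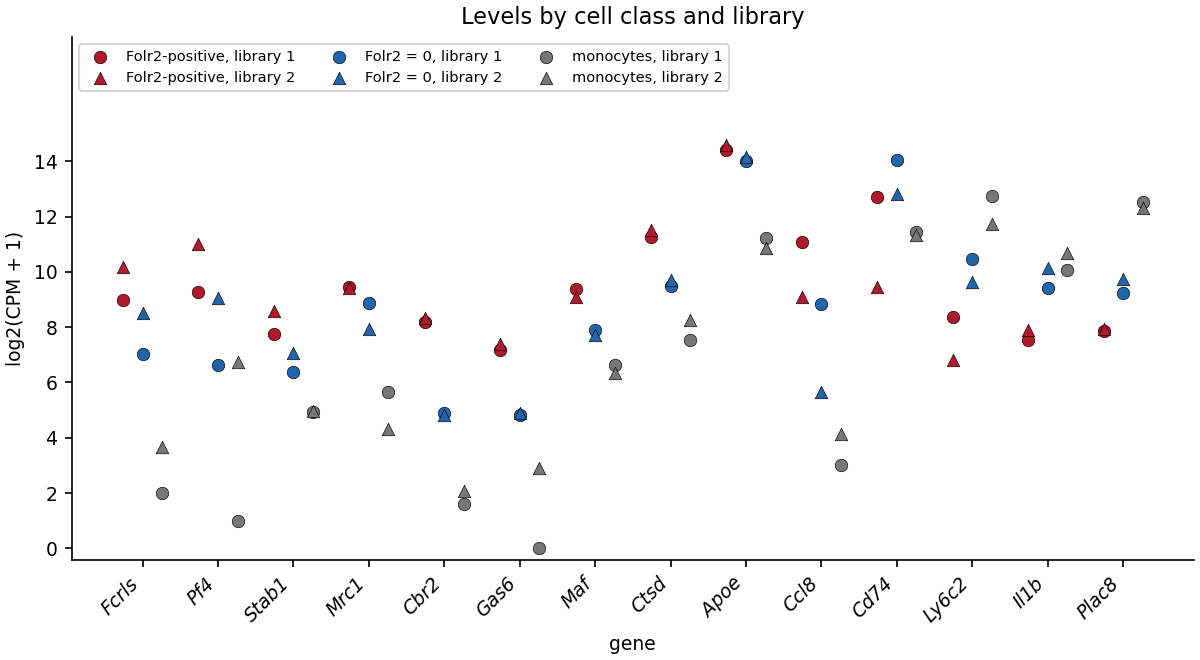
Levels of 14 genes as log2(CPM + 1) in Folr2-positive macrophages (red), C1q macrophages with no Folr2 UMI (blue) and inflammatory monocytes (grey); circles are library 1, triangles library 2, and each point is 1 summed class. In both libraries Cbr2, Gas6, Maf and Ctsd were highest in the Folr2-positive cells, while Il1b, Plac8 and Ly6c2 were lowest in the Folr2-positive cells; Cd74 differed widely between the libraries.

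Of 26 genes listed for resident-type macrophages, 22 could be tested, and 16 were higher and 1 lower, with a median log2 fold change of 1.71 against -0.01 over all genes tested. The list was assembled with results of these data known, so its direction is a description. With Lyve1 and Vsig4, which had no UMI in the Folr2-negative cells, set at their lower bounds, the median is again 1.71. Cbr2 had 291 CPM in the Folr2-positive cells of library 1 and 321 CPM in those of library 2, against 28.5 and 27.3 CPM in the Folr2-negative cells. Both Folr2-positive sums lay about an order of magnitude above both Folr2-negative ones, a log2 fold change of 3.35 ± 0.15 (SE; edgeR quasi-likelihood adjusted p = 2.46e-06). Fcna, which encodes ficolin A, a lectin that starts the complement cascade, had 33.1 and 28.1 CPM against 2.28 and 2.51 CPM (3.48 ± 0.40; edgeR adjusted p = 0.00113).

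The class markers outside the gate were also higher. Fcrls had 508 and 1148 CPM in the Folr2-positive cells, against 131 and 364 CPM in the Folr2-negative cells (log2 fold change 1.67 ± 0.13; edgeR adjusted p = 0.000161). Pf4 had 611 and 2078 CPM, against 99.0 and 531 CPM (2.19 ± 0.32; edgeR adjusted p = 0.00412). For both genes the Folr2-negative sum of library 2 lay under the Folr2-positive sum of library 1 by less than the gap between the libraries, so the clear separation is within each library. Stab1 had 217 and 379 CPM, against 83.0 and 133 CPM (1.35 ± 0.16; edgeR adjusted p = 0.00126). F13a1, the coagulation factor XIII A chain that macrophages make, had 168 and 294 CPM, against 10.3 and 72.9 CPM (2.38 ± 0.57; edgeR adjusted p = 0.0349), and this call was lost among cells of 10000 to 40000 UMIs.

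Some textbook resident markers were sparse. Lyve1, a hyaluronan receptor of perivascular macrophages, had 22.1 and 18.0 CPM in the Folr2-positive cells and 0 UMIs in the Folr2-negative cells of both libraries. Set against a floor of 3 counts over both Folr2-negative sums, it was at least 57.4-fold higher (edgeR adjusted p = 0.00307). Only 2 of 67 and 26 of 776 members had a Lyve1 UMI, and 23 of the 26 UMIs of library 1 came from 1 cell. Vsig4, a complement receptor, had 0 UMIs in library 1 in either class and 4.27 CPM in the Folr2-positive cells of library 2. Its call is counted among the 16 but rests on library 2 alone, since the direction in library 1 comes only from the 0.5 added to counts of 0. Cd163, the haemoglobin scavenger receptor, had 3.40 and 11.6 CPM against 0 and 0.886 CPM (3.71 ± 0.55; edgeR adjusted p = 0.00433), and Timd4, a phosphatidylserine receptor of long-lived resident macrophages, had 1.70 and 0.400 CPM in the Folr2-positive cells and 0 in the others. The members are therefore mostly without Lyve1, Cd163, Vsig4 and Timd4 UMIs at this depth.

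Mrc1, the mannose receptor, had 702 and 684 CPM in the Folr2-positive cells against 464 and 242 CPM in the Folr2-negative cells, a log2 difference of 0.96 ± 0.20 (edgeR adjusted p = 0.0211) that fell just short of 2-fold. Selenop, a selenium carrier, had 927 and 887 CPM, against 462 and 367 CPM (1.03 ± 0.12; edgeR adjusted p = 0.00107). The lone resident-list gene that was lower was Mgl2, a galactose-binding C-type lectin shared with dendritic cells, with 92.6 and 1.60 CPM against 259 and 25.7 CPM (-2.44 ± 0.50; edgeR adjusted p = 0.0203). Fcgrt, the neonatal Fc receptor gene, had 178 and 190 CPM, against 87.5 and 63.8 CPM (1.22 ± 0.16; edgeR adjusted p = 0.00272), and Wwp1, a ubiquitin ligase, had 79.8 and 95.3 CPM against 22.1 and 25.8 CPM (1.75 ± 0.14; edgeR adjusted p = 0.000163). Retnla, an alternative-activation gene, had 587 and 7.40 CPM, against 60.9 and 24.8 CPM; the libraries went opposite ways and it was not called (0.87 ± 0.95; edgeR adjusted p = 0.714).

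Genes of dead-cell uptake and cargo breakdown were higher for some members of their lists only. Of 17 efferocytosis genes tested 3 were higher and 0 lower, beside 1.11% and 1.12% of all genes tested. Gas6 had 145 and 167 CPM in the Folr2-positive cells, against 27.4 and 28.8 CPM in the Folr2-negative cells (log2 fold change 2.37 ± 0.23; edgeR adjusted p = 0.000336). Its receptors gave no 2-fold call: Mertk had 110 and 79.5 CPM against 75.7 and 48.4 CPM (0.52 ± 0.14; edgeR adjusted p = 0.0592), and Axl had 360 and 189 CPM against 457 and 234 CPM (-0.43 ± 0.11; edgeR adjusted p = 0.0402, under 2-fold). Cd36, a receptor for oxidised lipids, had 39.9 and 23.2 CPM against 3.81 and 8.42 CPM (1.94 ± 0.49, edgeR adjusted p = 0.0428). Only 17.9% and 13.3% of members had a Cd36 UMI. The 5% of members with the most Cd36 UMIs held 63.8% and 72.1% of them, so this call rests on few cells.

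Of 22 lysosomal genes 3 were higher and 0 lower, beside 1.11% and 1.12% of all genes tested. Ctsd, the aspartic protease cathepsin D, had 2444 and 2926 CPM in the Folr2-positive cells against 722 and 832 CPM in the Folr2-negative cells (1.68 ± 0.14; edgeR adjusted p = 0.000163). Ctsb, the cysteine protease cathepsin B, had 4873 and 3931 CPM against 2203 and 1675 CPM (1.08 ± 0.10; edgeR adjusted p = 0.000336). The groups did not overlap for either. Ctsf was the third call, at 11.0 and 14.1 CPM against 4.95 and 6.35 CPM (1.02 ± 0.26; edgeR adjusted p = 0.0470), and Lgmn, asparaginyl endopeptidase, stayed under 2-fold at 0.60 ± 0.10. Of 20 genes of lipid-laden macrophages only 1 was higher and 1 lower, which is near the shares over all genes and no result about the list. Apoe, the apolipoprotein and the most abundant of those described here, had 21791 and 24792 CPM against 16546 and 18018 CPM (0.32, edgeR adjusted p = 0.139). Trem2 had 687 and 840 CPM against 410 and 522 CPM (0.60 ± 0.16, edgeR adjusted p = 0.0532).

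Chemokine genes split. Of 19 tested, 2 were higher and 1 lower, beside 1.11% and 1.12% of all genes tested. The second higher one was Pf4, described above. Ccl8 had 2146 and 544 CPM in the Folr2-positive cells, against 453 and 49.3 CPM in the Folr2-negative cells (log2 fold change 2.62 ± 0.44; edgeR adjusted p = 0.00730). Its neighbours in the monocyte chemoattractant cluster on chromosome 11 (Ccl2 at 82035577 to 82037452, Ccl7 at 82045712 to 82047525, Ccl12 at 82101845 to 82103399 and Ccl8 at 82115185 to 82116799, GRCm38.p6) showed smaller differences. Ccl7 had 792 and 1130 CPM against 350 and 554 CPM (0.99 ± 0.11, edgeR adjusted p = 0.000793). That is just under 2-fold on edgeR's scale, though not by the CPM values. Ccl2 had 990 and 1110 CPM against 500 and 864 CPM (edgeR adjusted p = 0.0839), and for Ccl12 edgeR's adjusted p was 0.412. Cxcl2, a neutrophil attractant, was lower, at 1208 and 2417 CPM against 2238 and 5097 CPM (-1.09 ± 0.10; edgeR adjusted p = 0.000336).

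**Figure D2:**
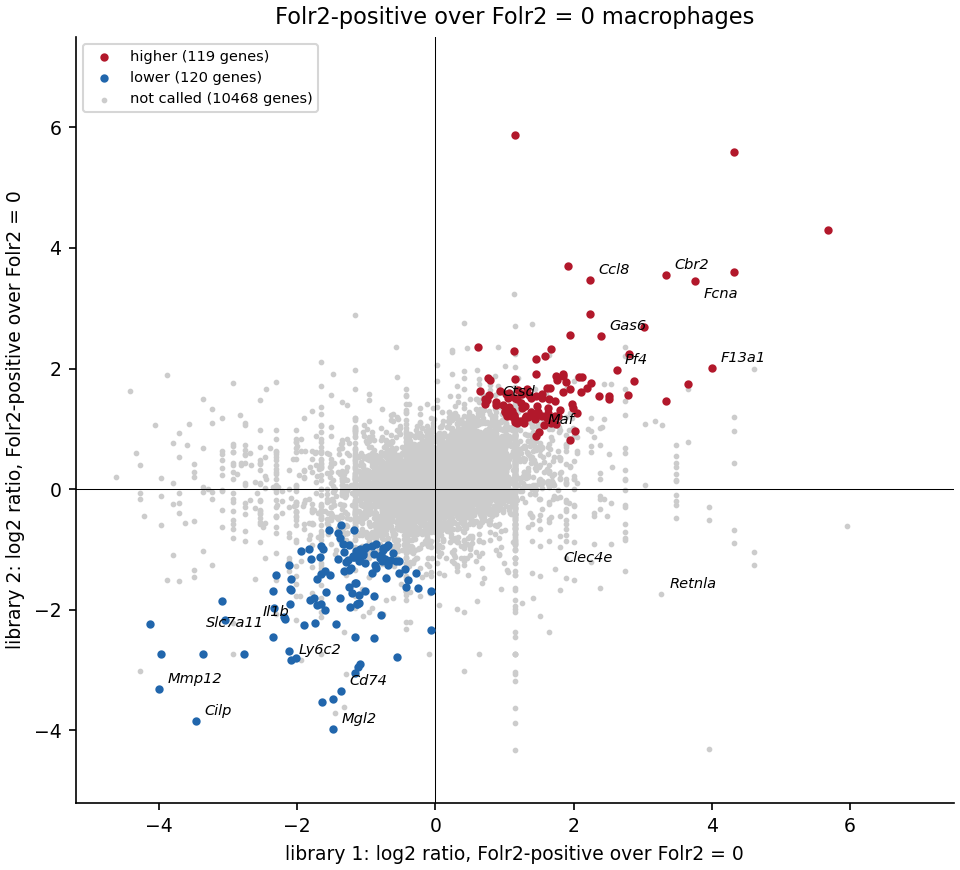
Each point is a gene, with its log2 ratio of Folr2-positive over Folr2-negative C1q macrophages in library 1 on the x axis and in library 2 on the y axis (0.5 added to each count, which makes the stripes of genes with few UMIs); red and blue mark the 119 higher and 120 lower genes. Cbr2, Fcna, Gas6 and Ccl8 lie far up on both axes, Cilp, Mmp12 and Il1b far down on both, and Clec4e and Retnla lie right of 0 in library 1 and under 0 in library 2.

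Growth factor, receptor and enzyme genes completed the higher side. Pdgfc, a platelet-derived growth factor, had 59.5 and 29.2 CPM in the Folr2-positive cells against 27.0 and 5.91 CPM in the Folr2-negative cells (1.59 ± 0.26; edgeR adjusted p = 0.00715). Igf1, insulin-like growth factor 1, had 162 and 47.9 CPM against 73.5 and 5.02 CPM and just missed the threshold (1.80 ± 0.47; edgeR adjusted p = 0.0520). Nrp1, a coreceptor for semaphorins and VEGF, had 203 and 187 CPM against 88.3 and 59.9 CPM (1.33 ± 0.13), and Cd93, a C-type lectin-like receptor, had 111 and 183 CPM against 43.4 and 62.0 CPM (1.36 ± 0.15). S1pr1, a receptor for sphingosine 1-phosphate, had 19.5 and 30.1 CPM against 2.28 and 4.58 CPM (2.67 ± 0.35), and Ltc4s, leukotriene C4 synthase, had 88.3 and 95.9 CPM against 20.2 and 26.3 CPM (1.85 ± 0.29). Serpinb6a, a protease inhibitor, had 166 and 304 CPM against 23.6 and 64.2 CPM (2.36 ± 0.22). These 5 all had edgeR adjusted p-values between 0.000334 and 0.00532.

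Among 31 transcription factor genes 1 was higher and 1 lower. That is near the 1.11% and 1.12% of all genes tested and no result about the list. Maf was the higher one, at 667 and 551 CPM in the Folr2-positive cells against 240 and 211 CPM in the Folr2-negative cells, with both Folr2-positive sums above both Folr2-negative ones (log2 fold change 1.31 ± 0.10; edgeR adjusted p = 0.000120). Id1, an inhibitor of basic helix-loop-helix factors, was the lower one, at 1.70 and 6.00 CPM against 10.7 and 19.3 CPM (-1.68 ± 0.39; edgeR adjusted p = 0.0329). Etv1, an ETS factor found among the leading calls, had 47.6 and 58.0 CPM against 14.8 and 11.5 CPM (1.98 ± 0.19; edgeR adjusted p = 0.000334). Of 15 complement genes outside C1q 3 were higher and 1 lower; C4b, complement C4, had 234 and 86.9 CPM against 85.6 and 38.8 CPM (1.18 ± 0.14), and Itgax, the CD11c chain of a complement receptor, had 34.8 and 7.20 CPM against 118 and 25.1 CPM (-1.95 ± 0.27; edgeR adjusted p = 0.00301).

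MHC class II genes formed the most uniform group on the lower side. All 9 tested genes had log2 values under 0, with a median of -2.30, and 5 of the 9 were called lower against a background of 1.12% of all genes. Cd74, the invariant chain, had 6615 and 705 CPM in the Folr2-positive cells, against 17063 and 7211 CPM in the Folr2-negative cells (-2.30 ± 0.56; edgeR adjusted p = 0.0393). H2-Ab1, a beta chain of the presenting molecule, had 2497 and 213 CPM against 6955 and 2385 CPM (-2.40 ± 0.59; edgeR adjusted p = 0.0409). Both calls were lost with DESeq2 and with a limit of 4 Folr2 UMIs, and the library 1 sum of the Folr2-positive cells was about as high as the library 2 sum of the Folr2-negative cells, so the classes separate within a library and overlap across libraries. H2-Aa, with 2955 and 211 CPM against 7393 and 2585 CPM, missed the threshold (edgeR adjusted p = 0.0619), as did H2-Eb1 (edgeR adjusted p = 0.0595). The peptide-loading gene H2-DMb1 had 331 and 103 CPM against 727 and 386 CPM (-1.64 ± 0.25; edgeR adjusted p = 0.00533). Ciita, the activator that switches on MHC class II genes, had 22.9 and 1.40 CPM against 72.7 and 16.4 CPM (-2.71 ± 0.49; edgeR adjusted p = 0.0117).

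Monocyte genes were also lower. Of 17 tested, 5 were lower and 0 higher, with a median of -0.93, beside 1.12% lower and 1.11% higher of all genes tested. Ly6c2 had 329 and 112 CPM in the Folr2-positive cells, against 1403 and 800 CPM in the Folr2-negative cells (-2.57 ± 0.23; edgeR adjusted p = 0.000251). Plac8 had 229 and 246 CPM against 599 and 862 CPM (-1.72 ± 0.27; edgeR adjusted p = 0.00562). Ccr2, the receptor that brings monocytes out of the marrow, had 268 and 214 CPM against 578 and 485 CPM (-1.25 ± 0.20; edgeR adjusted p = 0.00622), and Chil3 had 21.2 and 12.7 CPM against 109 and 50.2 CPM (-2.11 ± 0.30; edgeR adjusted p = 0.00307). For all 4 genes both Folr2-positive sums lay under both Folr2-negative sums.

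Il1b, the inflammatory cytokine interleukin 1 beta, had 184 and 235 CPM in the Folr2-positive cells, against 690 and 1115 CPM in the Folr2-negative cells (log2 fold change -2.21 ± 0.14; edgeR adjusted p = 3.46e-05). Tnf was not called, at 104 and 86.2 CPM against 97.4 and 83.4 CPM (-0.05 ± 0.12; edgeR adjusted p = 0.907). Slc7a11, the cystine transporter, had 6.79 and 25.1 CPM against 32.3 and 111 CPM (-2.28 ± 0.15; edgeR adjusted p = 3.46e-05), and Mmp12, the macrophage elastase, had 5.10 and 5.34 CPM against 87.9 and 53.4 CPM (-3.78 ± 0.71; edgeR adjusted p = 0.0139). Cilp, a matrix protein gene, had the lowest log2 fold change of the lower calls described here, at 1.70 and 1.33 CPM against 23.2 and 19.6 CPM (-4.18 ± 0.55, edgeR adjusted p = 0.00235). Its Folr2-positive values rest on few UMIs. Of 15 hypoxia genes 2 were lower and 0 higher, beside 1.12% lower and 1.11% higher of all genes tested. Among the lower was Ndrg1, at 11.9 and 15.8 CPM against 30.4 and 32.5 CPM (-1.25 ± 0.17, edgeR adjusted p = 0.00301).

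Several groups gave no call in either direction. None of 20 genes of folate and one-carbon metabolism was called, which at the background of 1.11% and 1.12% is no result about the list; Slc46a1, a folate transporter, had 4.25 and 7.40 CPM in the Folr2-positive cells against 4.95 and 4.58 CPM in the Folr2-negative cells. No gene was called by edgeR either among 20 type I interferon genes, 19 interferon gamma genes, 13 checkpoint genes, 9 Ms4a genes, 17 dissociation stress genes, 16 S phase genes and 17 genes reported as miR-21 targets. At an unadjusted p under 0.05, with no limit on the fold, edgeR gave 3 of the folate genes, 10 of the type I interferon, 5 of the interferon gamma, 6 of the checkpoint, 4 of the Ms4a, 10 of the dissociation stress, 2 of the S phase and 6 of the miR-21 target genes, and DESeq2 called 1 interferon gamma gene and 0 of the others. The share of all tested genes at that unadjusted cut is not given here, so these counts are no result about the lists. Of 22 p53 target genes, which respond to DNA damage, 1 was higher and 1 lower. That is near the 1.11% and 1.12% of all genes tested and no result about the list. Sesn1 was higher, at 39.1 and 31.9 CPM against 15.6 and 10.0 CPM (1.40 ± 0.20, edgeR adjusted p = 0.00361). Pmaip1 was lower, at 27.2 and 10.6 CPM against 44.9 and 29.4 CPM (-1.32 ± 0.22, edgeR adjusted p = 0.00777).

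The second comparison set the Folr2-positive macrophages against inflammatory monocytes of the same tumours, 97 cells of library 1 and 552 of library 2 with at least 4 Ly6c2 and 10 Lyz2 UMIs and at most 5 C1q UMIs (median 9812 and 7895 UMIs per cell). The comparisons share the Folr2-positive sums, so their results are not independent. Of 10705 genes tested with edgeR in the same way, 1049 were higher (9.8%) and 901 lower (8.42%) in the Folr2-positive cells. Of 22 resident-type genes 16 were higher and 0 lower, with a median log2 fold change of 3.12 against 0.04 over all genes, and again 3.12 with Lyve1 and Retnla, at 0 in the monocytes, set at their lower bounds. Fcrls had 508 and 1148 CPM in the Folr2-positive cells, against 3.02 and 11.8 CPM in the monocytes (6.35 ± 0.20; edgeR adjusted p = 7.95e-08). Hpgds, the synthase that makes prostaglandin D2, had 107 and 115 CPM against 0 and 1.20 CPM (6.38 ± 0.37), and Ptgs1, the cyclooxygenase upstream of it, had 68.8 and 67.0 CPM against 0 and 1.60 CPM (5.27 ± 0.35). Gpr34, a lysophosphatidylserine receptor, had 76.4 and 95.7 CPM against 0 and 1.80 CPM (5.58 ± 0.30). Lyve1 had no UMI in the monocytes and was at least 36.6-fold higher in the Folr2-positive cells.

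More genes of uptake, lipid handling and lysosomes were called against monocytes than between the macrophage classes, beside a background that was also larger. Of all genes tested, 9.8% were higher and 8.42% lower. Efferocytosis genes were higher for 8 and lower for 3 of 17, lysosomal genes higher for 8 and lower for 0 of 22, heme and iron genes higher for 7 and lower for 0 of 16, and lipid genes higher for 8 and lower for 1 of 20. Apoe had 21791 and 24792 CPM in the Folr2-positive cells against 2380 and 1881 CPM in the monocytes (3.14 ± 0.12), Trem2 had 687 and 840 CPM against 52.4 and 106 CPM (2.88 ± 0.18), and Mertk had 110 and 79.5 CPM against 8.06 and 3.20 CPM (4.02 ± 0.23). Ccl8 had 2146 and 544 CPM against 7.06 and 16.6 CPM (5.45 ± 0.55), and its neighbour Ccl12, not called between the macrophage classes, had 761 and 1830 CPM against 161 and 166 CPM (2.59 ± 0.29). Monocyte genes were lower for 13 of 16 and higher for 0, a list that shares its theme with the monocyte gate. Plac8 had 229 and 246 CPM against 5967 and 5115 CPM (-4.90 ± 0.30), and Chil3 had 21.2 and 12.7 CPM against 1815 and 613 CPM (-6.14 ± 0.31). Every one of these single-gene calls had an edgeR adjusted p at or under 6.45e-05.

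Growth factor and cytokine genes went both ways, with 7 of 22 higher and 8 lower in the Folr2-positive cells than in monocytes. Over all genes tested, 9.8% were higher and 8.42% lower. The platelet-derived growth factor genes were among the higher: Pdgfc had 59.5 and 29.2 CPM in the Folr2-positive cells against 1.01 and 1.00 CPM in the monocytes (4.72 ± 0.46), Pdgfb 33.1 and 26.9 CPM against 11.1 and 3.40 CPM (2.18 ± 0.32), and Pdgfa 49.3 and 66.8 CPM against 16.1 and 19.0 CPM (1.39 ± 0.20). Igf1, not called between the macrophage classes, had 162 and 47.9 CPM against 1.01 and 6.20 CPM (3.33 ± 0.63; edgeR adjusted p = 0.00201). The growth factor gene Vegfa was lower, at 38.2 and 58.0 CPM against 68.5 and 196 CPM (-1.84 ± 0.22), as was Tgfb1, which encodes TGF-beta 1 (-1.07 ± 0.12). Inflammatory cytokines were also among the lower: Il1b had 184 and 235 CPM against 1060 and 1650 CPM (-3.01 ± 0.14), and Osm, oncostatin M, had 174 and 119 CPM against 540 and 367 CPM (-1.96 ± 0.12). Of 26 receptor genes 10 were higher and 2 lower, with Cx3cr1, the fractalkine receptor, at 487 and 598 CPM against 96.8 and 89.4 CPM (2.23 ± 0.16) and Tgfbr2, a TGF-beta receptor, at 161 and 143 CPM against 25.2 and 25.4 CPM (2.19 ± 0.14). Among folate genes 3 of 20 were higher and 1 lower, which is near the shares over all genes and no result about the list. Slc46a1 had 4.25 and 7.40 CPM against 0 and 0.600 CPM (edgeR adjusted p = 0.00225). Mthfd2, a mitochondrial folate enzyme, had 22.1 and 17.9 CPM against 31.2 and 34.2 CPM (-1.18 ± 0.19, edgeR adjusted p = 0.000736). Interferon-induced genes were lower for 4 of 20 of the type I list, with Isg15 at 1085 and 781 CPM against 2049 and 1977 CPM (-1.44 ± 0.15; edgeR adjusted p = 4.39e-05), and 1 was higher.

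Hypoxia and p53 target genes also differed from monocytes. Of 15 hypoxia and glycolysis genes 10 were lower and 0 higher (background 8.42%), among them the glucose transporter gene Slc2a1, at 39.1 and 35.2 CPM in the Folr2-positive cells against 131 and 140 CPM in the monocytes (-2.27 ± 0.16). Of 22 p53 target genes 9 were higher and 1 lower (background 9.8% higher). Phlda3, a p53-induced inhibitor of Akt, had 91.7 and 99.9 CPM against 1.01 and 3.80 CPM (4.54 ± 0.27), and Zmat3, a p53-induced RNA-binding protein gene, had 34.0 and 30.8 CPM against 2.02 and 2.60 CPM (3.28 ± 0.31). Cdkn1a, the best known p53 target, was not called (-0.04; edgeR adjusted p = 0.782), and all mice had received cisplatin, so no untreated level is at hand. For MHC class II genes 0 of 9 were called against monocytes; Cd74 had 6615 and 705 CPM against 2792 and 2610 CPM, so the libraries lay on opposite sides of the monocytes.

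Some levels also followed the number of Folr2 UMIs within the non-cycling C1q macrophages, and others did so in library 2 only. With 0, 1, 2 to 3, 4 to 7 and at least 8 Folr2 UMIs per cell, Cbr2 had 28.5, 105, 236, 296 and 353 CPM in library 1 and 27.3, 78.0, 153, 215 and 480 CPM in library 2. Gas6 had 27.4, 98.9, 109, 129 and 212 CPM in library 1 and 28.8, 77.6, 91.5, 133 and 230 CPM in library 2. Both genes were higher in each band than in the one before it in both libraries. Il1b ran the other way, with 690, 565, 236, 169 and 141 CPM in library 1 and 1115, 632, 380, 238 and 158 CPM in library 2. Cd74 had 7211, 3715, 1463, 657 and 349 CPM in library 2 but 17063, 11092, 5043, 9329 and 4820 CPM in library 1, where the order was broken by the band of 4 to 7 UMIs. Fcrls had 364, 705, 979, 1163 and 1225 CPM in library 2 but 131, 283, 587, 477 and 454 CPM in library 1. Stab1 had 133, 222, 297, 368 and 429 CPM in library 2 but 83.0, 204, 206, 247 and 187 CPM in library 1. The bands hold 168, 23, 25, 25 and 17 cells in library 1 and 481, 161, 205, 251 and 320 in library 2, and the median depth differed between them, from 14245.5 UMIs with no Folr2 UMI to 20956 with at least 8 in library 1 and from 12891 to 19916 in library 2, so the order is a description with no test.

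**Figure D3:**
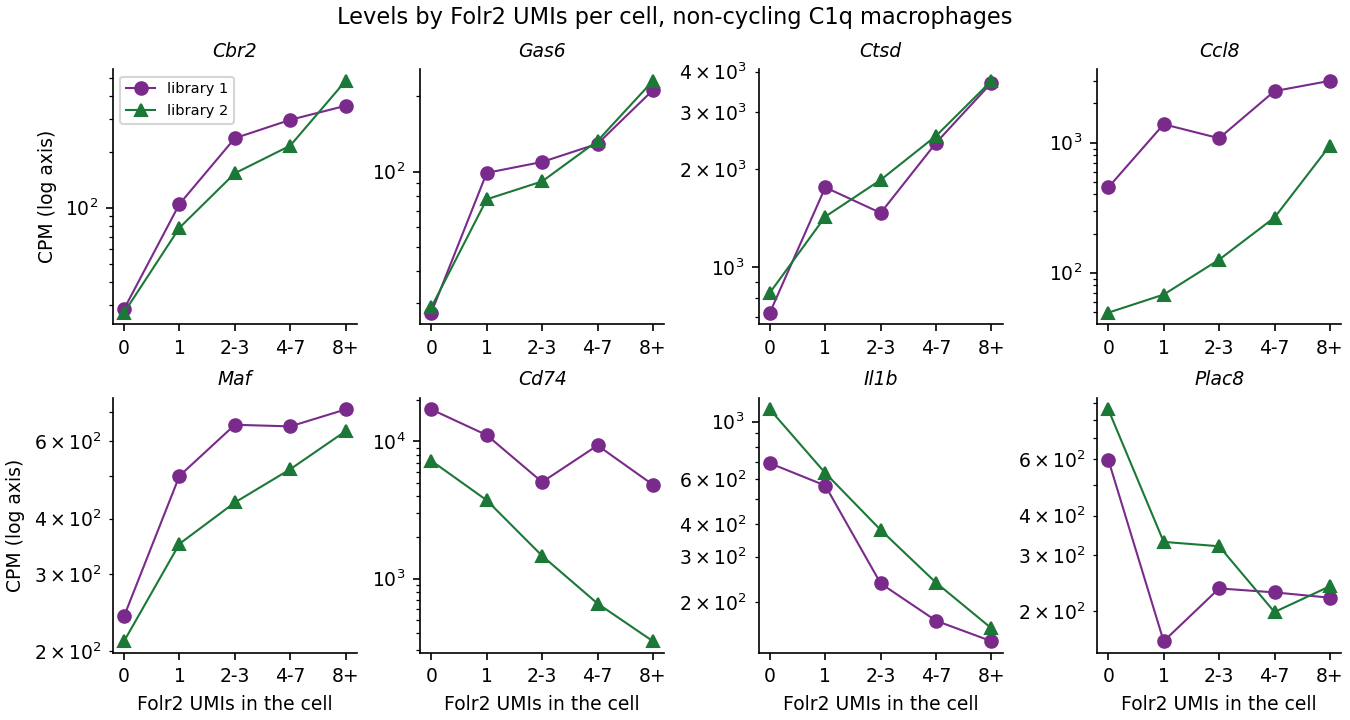
CPM on a log axis against Folr2 UMIs per cell (0, 1, 2-3, 4-7, 8 or more) in non-cycling C1q macrophages, for 8 genes; purple circles are library 1, green triangles library 2, and each point is the sum over the cells of 1 band. Cbr2 and Gas6 climb and Il1b declines across every band in both libraries, and Ccl8 and Cd74 lie higher in library 1 than in library 2 in every band.

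Among themselves the members of library 1 varied more in MHC class II than in the resident-type genes on a log scale. After each cell was thinned to 4000 UMIs, the resident-type list took a median of 27 UMIs in the members of library 1 and 30 in those of library 2, against 10 and 8 in Folr2-negative macrophages and 5 and 5 in monocytes. The MHC class II genes took a median of 26 UMIs in members of library 1, with the 10th and 90th percentiles at 2.60 and 149. Those percentiles were 13.2 and 44.0 for the resident-type list. In members of library 2 the MHC class II median was 2, with percentiles of 0 and 10.5. Counting error weighs more on so few UMIs, so the log spreads of the lists cannot be compared in library 2. Folr2-negative macrophages had MHC class II medians of 149 and 14. At the same depth Cbr2 had a UMI in 46.3% and 54.9% of members against 10.1% and 9.15% of Folr2-negative cells, Gas6 in 34.3% and 38.1% against 7.74% and 7.69%, and Ccl8 in 67.2% and 32.6% against 20.2% and 6.44%. Ccr2 still had a UMI in 37.3% and 38.8% of members, against 72.0% and 73.4%, and Il1b in 23.9% and 29.3%, against 56.5% and 67.4%.

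Across members, some thinned list sums were related in the same direction in both libraries. Spearman's rho between the lipid list and the monocyte list was -0.51 over 67 cells of library 1 and -0.55 over 776 cells of library 2. It was -0.36 and -0.31 between MHC class II and the resident-type list, and 0.60 and 0.75 between type I interferon and interferon gamma genes, lists whose genes respond to overlapping signals. These points share a library and a droplet run, so the values are descriptions.

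**Figure D4:**
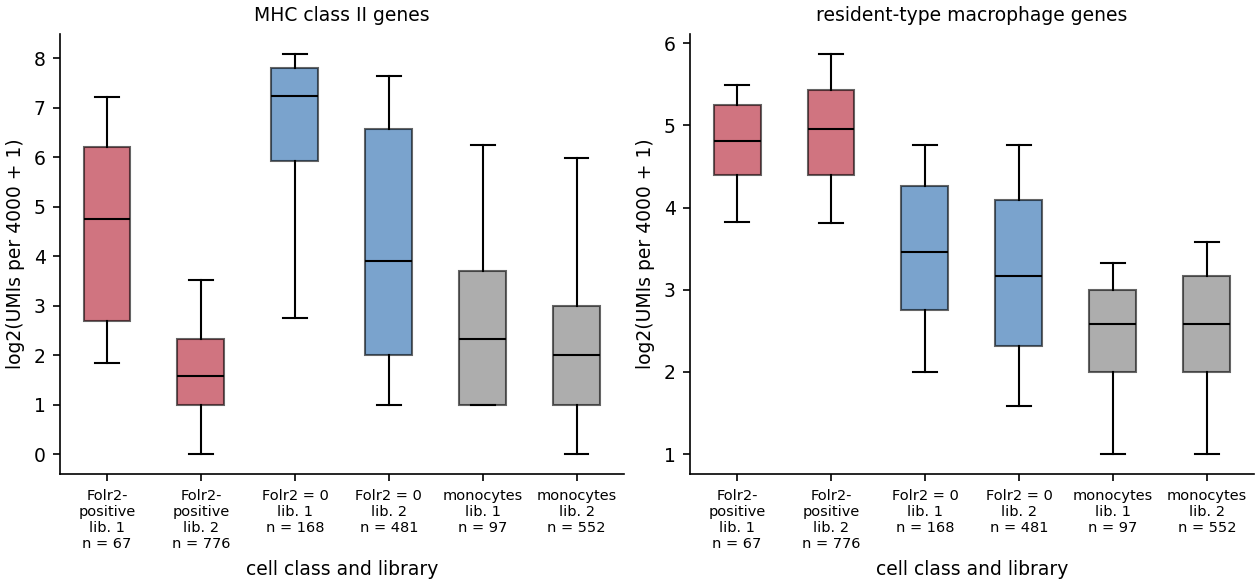
UMIs per cell of the MHC class II genes (left) and the resident-type genes outside the gate (right) after thinning to 4000 UMIs, as log2(UMIs + 1); boxes are quartiles with the median, whiskers the 10th and 90th percentiles, for each class and library. The Folr2-positive cells of library 1 span a wide MHC class II range around a median of 26 UMIs, those of library 2 lie near 2, and the resident-type medians of 27 and 30 are alike in the libraries.

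The third comparison set the members of library 1 beside those of library 2. Each is 1 library of 1 group, so there is no replicate check and no test, and a gene was counted when its CPM ratio was at least 2-fold with an exact interval outside 1.5-fold, over 9530 genes with at least 50 UMIs. Library 1 was higher for 228 genes (2.39%) and lower for 130 (1.36%). Genes of the class went several ways. Of the 22 resident-type genes measured 4 were higher and 2 lower in library 1. The log2 ratio of library 1 over library 2 was -0.14 for Cbr2, -0.21 for Gas6, 0.28 for Maf, 0.04 for Mrc1 and -0.19 for Apoe. No lysosomal gene of 21, no efferocytosis gene of 16 and no reported miR-21 target of 16 was past the limits. At shares of 2.39% and 1.36% over all genes, that is no result about these lists. The 4 higher genes were Retnla and Mgl2, described below, Igf1, at 162 and 47.9 CPM (1.76), and Clec10a, a C-type lectin, at 24.6 and 5.14 CPM (2.26). Pf4 and Fcrls were the lower ones, with ratios of -1.77 (-1.88 to -1.66) and -1.18, and the Folr2-negative cells showed a Pf4 ratio of -2.42. Stab1, at 217 and 379 CPM, had a ratio of -0.81 and was within the limits.

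MHC class II genes were higher in library 1 for 6 of the 7 measured, with a median log2 ratio of 3.23 against 0.02 over all genes. Of all genes, 2.39% were higher and 1.36% lower in library 1. H2-Aa had 2955 CPM in members of library 1, against 211 CPM in those of library 2, a ratio of 3.81 (3.74 to 3.88), and Cd74 had 6615 and 705 CPM, a ratio of 3.23 (3.19 to 3.27). The same ratio in Folr2-negative macrophages was 1.52 for H2-Aa and 1.24 for Cd74; the difference between the classes was not tested. Interferon gamma genes were higher for 8 of 18 and lower for 0, with a median of 0.90, and type I interferon genes for 4 of 20, with all 20 ratios above 0. Cxcl9, an interferon gamma-induced chemokine, had 1149 and 208 CPM, but 1 cell of library 1 held 44.2% of that library's UMIs. The complement genes C3 (227 and 33.7 CPM), Cfb (ratio 1.79) and C4b (1.43) were also higher in library 1. For C3, 40 of 67 members of library 1 had a UMI, and 3 cells held 50.2% of that library's UMIs.

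Chemokines went both ways, with 4 of 18 higher and 5 lower in library 1, beside 2.39% and 1.36% of all genes. Ccl8 had 2146 CPM in members of library 1, against 544 CPM in those of library 2, a ratio of 1.98 (1.92 to 2.05), while Ccl12, from the same cluster, had 761 and 1830 CPM, a ratio of -1.27, and Cxcl2 had 1208 and 2417 CPM. Spp1, which encodes osteopontin, had 453 and 1373 CPM (-1.60). Retnla had the highest ratio with counts in both libraries, 6.31 (6.02 to 6.61) from 587 and 7.40 CPM, but it had a UMI in 14 of 67 and 9 of 776 members, and 1 cell held 77.1% of the library 1 UMIs. Mgl2, at 92.6 and 1.60 CPM, and Ear2, at 61.2 and 1.67 CPM, followed with ratios of 5.85 and 5.20; 3 cells held 72.5% of the library 1 UMIs of Mgl2 and 84.7% of those of Ear2, which was seen in 7 of 67 cells.

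NK cell and fibroblast markers lay mostly on the lower side, beside 1.36% of all genes counted as lower in library 1. Of 10 NK genes measured 7 were lower in library 1, with Gzmc at 8.49 and 182 CPM and Gzmf at 0 and 79.2 CPM; Gzmc had 172 and 2145 CPM in T cells of the same libraries. Of 7 fibroblast genes 6 were lower, but without the 5% of cells with the most UMIs the Col3a1 ratio was -1.35 in place of -4.50, that of Col1a1 was -0.91 in place of -2.90, and that of Col1a2 was 0.10 in place of -2.27. Without those cells 84 genes in place of 130 were lower in library 1. The part of RNA from other cells in these ratios was not tested.

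**Figure D5:**
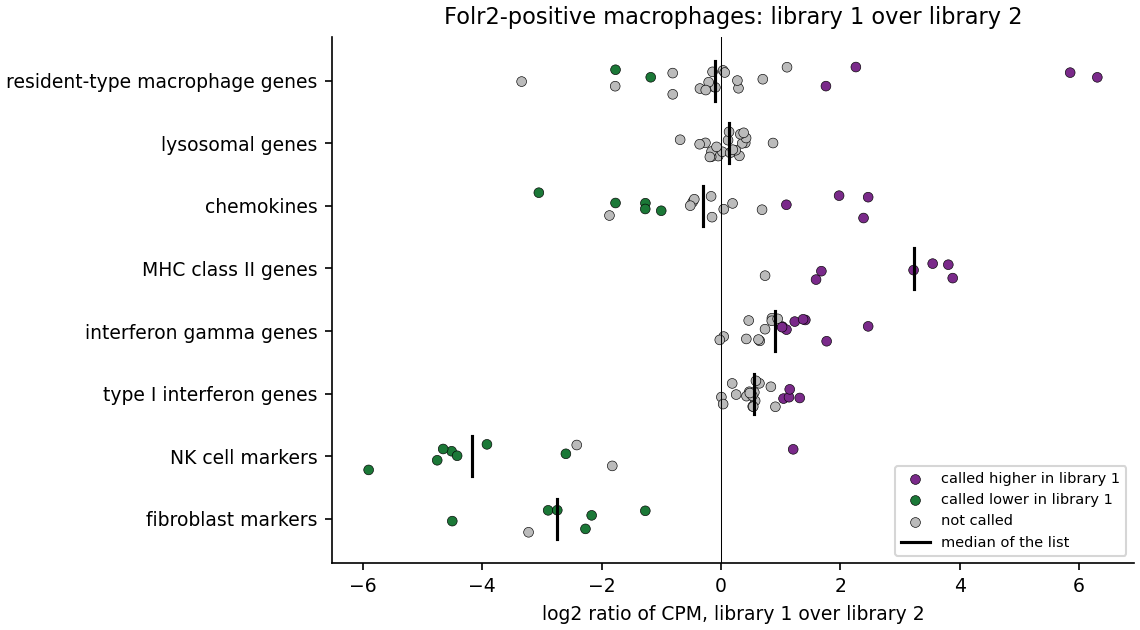
Log2 CPM ratio of Folr2-positive macrophages of library 1 over those of library 2 for the genes of 8 lists; each point is a gene, purple and green mark ratios past the limits, grey the others, and the bar is the list's median. MHC class II genes lie right of 0 around a median of 3.23, lysosomal genes cluster around 0, and NK cell and fibroblast genes lie mostly far left.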

How the data were processed

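Transcript 3′ ends of single CD45+ cells were sequenced in droplets (10x Chromium), 1 library for each tumour group per the labels' protocols. Both libraries were deposited by the authors in a single matrix that holds UMI counts, without normalisation, for 31053 genes in 12514 barcodes. It comes from Cell Ranger 3.1.0 per the file headers, with mm10 per the submitters' processing notes. The annotation, the cell-calling rule and the strand setting are not stated in labels or headers, and 71 gene IDs share a symbol with another and were kept apart. The lists' 523 genes (521 found in the matrix), the class limits and the members were chosen with earlier results of these data known.

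Counts of each cell class (Folr2-positive, Folr2-negative, cycling, monocyte) were summed within each library, giving 8 sums, and tested with edgeR 4.0.16 (quasi-likelihood, TMM, filterByExpr, library as block; R 4.3.3), with p-values adjusted over all genes tested and the genes of the gate left out; DESeq2 1.42.0 was an alternative. The fit was tested on simulated counts. Folds against classes at 0 UMIs use a floor of 3 counts over both sums. Cells were thinned to 4000 UMIs without replacement, and no member was shallower. Members of the gene lists may be named, as may the 15 highest and 15 lowest called genes of each class comparison with at least 20 CPM in the higher class, and between libraries the 10 highest and 10 lowest with at least 50 CPM in 1 library. Promoter sequences are from RefSeq. Python 3.11.15 with numpy 2.4.6 and scipy 1.17.1 was used for the rest. UMI counts were 57488236 in library 1 and 149734240 in library 2.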

Additional observations from a re-analysis of the deposited data

Results flagged for a closer look

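Clec4e, a lectin receptor of inflammatory myeloid cells, differed between Folr2-positive and Folr2-negative macrophages in opposite directions in the libraries. It had 84.9 CPM in the Folr2-positive cells against 25.5 CPM in the Folr2-negative cells of library 1, a log2 ratio of 1.73 (1.28 to 2.20), and 51.6 CPM against 129 CPM in library 2, a log2 ratio of -1.32 (-1.46 to -1.18). Retnla showed the same, with a log2 ratio of 3.27 (3.02 to 3.53) in library 1 and -1.74 (-2.10 to -1.39) in library 2. Clec4e had a UMI in 23.9% of the Folr2-positive cells of library 1. The 5% of those cells with the most Clec4e UMIs held 81.0% of them, so the library 1 value rests on few cells. For Retnla, 1 Folr2-positive cell held 77.1% of the UMIs of its class in library 1, and 1 cell held 69.4% in library 2. The difference between the libraries was not tested for either gene, since each class has 1 sum per library, and the intervals cover counting error only.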

How the results depend on the processing

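Against Folr2-negative macrophages, 119 genes were higher and 120 lower; without the block 1 and 1 were called, with DESeq2 78 were higher, and at the fold limits alone, with no test, library 2 gave 260 higher and library 1 gave 71 lower. Against monocytes, 1049 were higher and 901 lower; without the block the counts were 624 and 586, in library 1 alone 469 and 249, and in library 2 alone 1707 and 513. Between libraries, 228 genes were higher and 130 lower in library 1, against 887 and 599 at 1.5-fold with an interval that excludes 1, and 84 lower without the 5% of cells with the most UMIs. The Folr2-positive share of C1q macrophages, 25.1% and 54.2%, was 33.7% and 66.2% with at least 1 Folr2 UMI, 9.47% and 27.6% after thinning, and 56.5% in library 2 with at least 60 C1q UMIs.

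Of 3796 values of single genes under the alternatives, 3068 kept their direction and side of the threshold, or moved by less than their error where there was no test. These include 90 library ratios under the 1.5-fold limit, which changes the call and not the ratio, so they could not differ. Another 464 moved by more than their error, and 25 gained a call. Calls were lost for 230, of which 123 were without the library block, and 9 values reversed. The causes were not tested. The reversed ones are the log2 values of Clec4e with DESeq2 (0.24), Retnla with at least 4 Folr2 UMIs (-0.75), Cd74 against monocytes without the block (0.10), Cdkn1a against monocytes in cells of 10000 to 40000 UMIs (0.12), and, between libraries, Bgn (0.17 in those cells, 0.13 without the deepest 5%), Col1a2 (0.17 and 0.10) and Sparc (0.056 in cells of 10000 to 40000 UMIs). DESeq2 did not call Ccl8, Cd163, Fcna, F13a1, Lyve1, Pf4, Mgl2, Mmp12, Cilp, S1pr1, Ctsf, Vegfa, Vsig4, Cd74 or H2-Ab1 against Folr2-negative macrophages. No paired analysis was possible because the labels give each tumour group 1 library with no replicate number; the library block pairs cell classes within a library, not the KO and WT groups.

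The limits are few libraries and few cells: 67 members of library 1 carry every library 1 value, and genes with under 3 UMIs in a class cannot be ranked. Genes seen in few cells, such as Lyve1 and Retnla, can rest on 1 cell.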

Other observations

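Sex-linked genes differed between the libraries beyond the members. Over all barcodes Xist had 740 CPM in library 1 and 0.220 CPM in library 2. The Y-linked genes Ddx3y, Eif2s3y, Kdm5d and Uty had 162, 168, 38 and 54 UMIs in library 1 and 0 UMIs in the 7194 barcodes of library 2, so library 2 held almost no UMI of either kind. Members of library 1 had higher values of Eif2s3x, an X-linked gene, at 54.4 CPM against 27.1 CPM in members of library 2, and of Kdm6a, also X-linked, at 52.7 CPM against 24.5 CPM.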
